A study of Rattus norvegicus with 16 samples.

Results

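The insulin-like growth factor (IGF) system of the rat hippocampus was examined as 10 genes, the ligands Igf1 and Igf2, the receptors Igf1r and Igf2r and the binding proteins Igfbp1 to Igfbp6. The genes were taken by name, as all probes that the array design gives one of these symbols. They had 13 of the 30367 probes on the array, and 12 of these 13 were among the 22821 probes tested. Every gene had a probe that was well above background, by the flag of the scanner software, on 16 of 16 arrays.

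Messenger RNA was measured in whole hippocampus of adult male Sprague-Dawley rats 24 h after severe parasagittal fluid percussion, a model of traumatic brain injury (TBI). Naïve rats (3 arrays) had neither injury nor treatment. Sham rats (2 arrays) were anesthetized and prepared for injury but not injured. TBI rats (3 arrays) were injured and given no drug. TBI+JM6 rats (3 arrays) were injured and received JM6, an inhibitor of kynurenine 3-monooxygenase, at 400 mg/kg by gavage. TBI+PMI rats (3 arrays) were injured and received PMI-006 at 250 mg/kg by gavage. TBI+E33 rats (2 arrays) were injured, and are taken to be the estradiol group of the methods at 33 ug/kg, given subcutaneously by the labels and intraperitoneally by the methods. Each rat is 1 array. In the main test, p-values rest on the spread between rats within groups, pooled over all groups. Whole tissue does not tell fewer cells of a type from less mRNA per cell. The methods do not describe a vehicle for the TBI rats of the array study.

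Insulin-like growth factors are secreted peptides that signal mainly through the type 1 receptor, a tyrosine kinase. The type 2 receptor, which is also the mannose 6-phosphate receptor, takes up Igf2 and carries it to lysosomes. The binding proteins hold the ligands in extracellular fluid and can limit or prolong their action. In the adult brain Igf2 and Igfbp2 are made largely in the choroid plexus and meninges, which lie against the hippocampus, whereas Igf1 is made by neurons, microglia and vascular cells.

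The arrays fall in 2 scanning sessions. The 8 Naïve, Sham and TBI arrays had 16274 to 18239 probes well above background, and the 8 arrays of treated rats had 20256 to 24979. On the scale used below, each array's signal over its own 75th percentile among probes with that flag, the median probe was 0.99 log2 units higher in TBI+JM6, 0.79 higher in TBI+PMI and 1.08 higher in TBI+E33 than in TBI rats. Treatment cannot be told apart from scanning session in any comparison of treated with TBI rats. A further split did not follow the groups. All 12 of 12 choroid plexus markers were well above background on Naïve 2, Sham 1 and TBI+PMI 1, against 2 to 8 of 12 on the other 13 arrays. Markers of brain tissue were present throughout, with 6 of 6 astrocyte, 7 of 7 microglial and 6 of 6 oligodendrocyte markers well above background on every array, 5 or 6 of 6 neuronal markers and 5 to 7 of 7 markers of hippocampal fields. The summed scaled signal of 4 thalamic markers was 1.45 on Naïve 2 and from 0.16 to 0.57 on the other arrays.

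For some of the probes, the first 30 of the 60 bases are given 5′ to 3′ with the position of the whole probe in the rn4 build. They show which part of each transcript was read. Igf2 and Igfbp2 separated the arrays most, and the paired probes of Igf1 and of Igfbp2 give a second reading of each gene. Igf1r, Igf2r and Igfbp1 are among the genes called in a comparison below. Igfbp3 and Igfbp4 were called too, and their probes are not shown. Whether a probe lies in coding or untranslated sequence was not determined.
Igf2, chr1:202906641-202906700, minus strand: ttctggcaaaatccaaagcttgggttttgt
Igfbp2 first probe, chr9:71993843-71993902, plus strand: catctcttctacaacgagcagcaggagaat
Igfbp2 second probe, chr9:71994131-71994190, plus strand: gcttgggaatggggaaagaaatttttattt
Igf1 first probe, chr7:24604715-24604774, plus strand: agcaacctgcaaaacatcggaacacctgcc
Igf1 second probe, chr7:24587916-24587975, plus strand: tgaggaggctggagatgtactgtgctccgc
Igf1r, chr1:122989150-122989209, plus strand: tcggaagcatcaaggatgagatggagccca
Igf2r, chr1:42340766-42340825, plus strand: ttagcattgtaattctctccccctatttat
Igfbp1, chr14:87954736-87954795, plus strand: ctgccaccagtattttaatgtgcaaaactg
The paired probes of Igfbp2 lie 229 bp apart and those of Igf1 16740 bp apart. Igfbp2 and Igfbp5 are neighbours on chromosome 9 on opposite strands, with 6122 bp between their nearest probes, and Igfbp1 and Igfbp3 are neighbours on chromosome 14, with 4449 bp between theirs.

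Among the ligands, Igf2 varied widely within the Naïve, Sham and TBI+PMI groups and little within the other 3. Its log2 scaled signal was -0.49, 2.55 and -0.72 in Naïve rats 1 to 3, 2.32 and 0.30 in Sham rats 1 and 2, and -1.23, -1.59 and -1.49 in TBI rats 1 to 3. The treated rats gave 3.0, -0.29 and -1.30 in TBI+PMI, -0.46, -0.54 and -0.67 in TBI+JM6, and -0.63 and -0.39 in TBI+E33. The 3 high arrays, Naïve 2, Sham 1 and TBI+PMI 1, were the 3 arrays with all choroid plexus markers above background. The remaining 13 arrays lay between -1.59 and 0.30, and the TBI rats were below every Naïve and Sham rat. TBI rats did not overlap Naïve rats for 22.9% and Sham rats for 41.5% of all probes. By group mean the order was Sham (1.31 ± 1.43, SD, n = 2), TBI+PMI (0.47 ± 2.25, n = 3), Naïve (0.44 ± 1.83, n = 3), TBI+E33 (-0.51 ± 0.18, n = 2), TBI+JM6 (-0.56 ± 0.11, n = 3) and TBI (-1.43 ± 0.19, n = 3). Of neighbours in this order, TBI+JM6 and TBI did not overlap, beside 73.2% of all probes, and the others did.

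Choroid plexus markers were highest on the 3 arrays with the highest Igf2, and followed Igf2 only in part on the others. The summed scaled signal of the 12 markers was 82.0 on Naïve 2, 131 on Sham 1 and 172 on TBI+PMI 1. In the other arrays it was 3.77 and 4.74 in Naïve, 7.16 in Sham and from 1.05 to 4.86 in TBI rats, and among treated rats 2.05 and 9.59 (TBI+PMI), from 1.42 to 3.78 (TBI+JM6) and 2.21 and 2.63 (TBI+E33). Transthyretin (Ttr), the main secreted product of choroid plexus epithelium, reached log2 signals of 6.24, 6.90 and 7.19 on those 3 arrays and 2.88 or less elsewhere, and was at -2.91 in TBI rat 3. A list of 12 meningeal and fibroblast markers summed to 108 on Naïve 2 and 66.4 on TBI+PMI 1 but to 27.3 on Sham 1, where 49.0 was measured on Sham 2. No choroid plexus marker of the 8 tested and 1 of 11 meningeal markers, which fell, was called in TBI vs. Sham, beside 9.38% of all probes. The median log2 difference of the tested markers was -3.13 for choroid plexus and -1.24 for meninges and fibroblasts. Apart from the 3 high arrays, Sham 2 and TBI+PMI 2 had the highest choroid plexus sums and the highest Igf2. TBI 1 had a higher sum than Naïve 1 and Naïve 3 (4.86 against 4.74 and 3.77) and lower Igf2. The TBI+JM6 sums lay within the range of the TBI sums, while Igf2 did not overlap between these groups. They are of different scanning sessions, 73.2% of all probes did not overlap between them, and the median probe was 0.99 higher in TBI+JM6. The part of choroid plexus and meninges in the Igf2 differences was not tested.

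**Figure D1:**
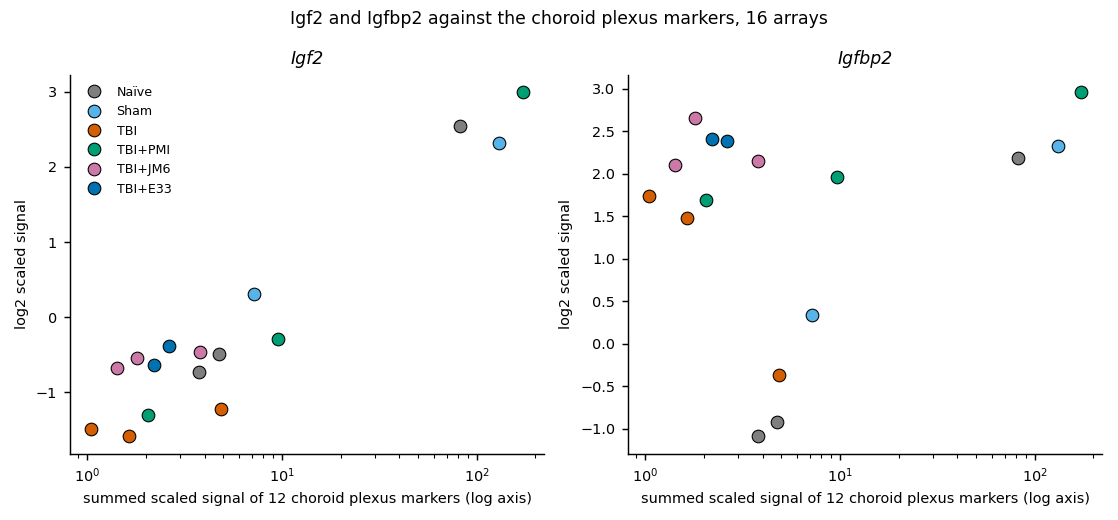
Log2 scaled signal of Igf2 (left) and Igfbp2 (right) on the y axes against the summed scaled signal of 12 choroid plexus markers (x axis, log scale); each point is 1 of the 16 arrays, coloured by group. The 3 arrays with sums of 82.0 to 172 had the highest Igf2, from 2.32 to 3.0, whereas Igfbp2 was also 1.48 or more on 9 arrays whose sums were 9.59 or less, 8 of them below 4.

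Igf2 was lower in TBI than in Sham rats by a log2 difference of -2.74 (SE 1.12) and than in Naïve rats by -1.88 (SE 1.0), and neither passed the test in limma (adjusted p = 0.141 and 0.315). All TBI rats but no Sham rat were on the second slide, and with the slide as a block these were -0.99 (SE 1.58) and -0.71 (SE 1.19). Only Naïve rats were on both slides of that session. The slide term therefore rested on Naïve 3 against Naïve 1 and 2, and Naïve 2 is one of the 3 high arrays. The 3 arrays with all choroid plexus markers were also left out, a choice made after seeing the data. The differences were then -1.74 against Sham and -0.82 (SE 0.28, limma adjusted p = 0.155) against Naïve rats, so the size of both fell. Sham 2 was then the only Sham array, so the first value has no spread of Sham rats behind it. The error against Naïve rats narrowed. Between treated and TBI rats Igf2 differed by 0.87 (SE 1.0) for TBI+JM6, 1.90 (SE 1.0) for TBI+PMI and 0.92 (SE 1.12) for TBI+E33, none of which passed. These errors are pooled over all groups, including those with wide Igf2 spread. With limma on both groups of a comparison alone, Igf2 passed in TBI+JM6 and TBI+E33 but not in TBI+PMI vs. TBI. TBI+JM6 and TBI+E33 rats did not overlap TBI rats, beside 73.2% and 85% of all probes. TBI+PMI rats did overlap TBI rats, where 62.5% of all probes did not. Without the 3 arrays, none of which is a TBI, TBI+JM6 or TBI+E33 array, the error narrowed and Igf2 passed in TBI+JM6 (0.87, SE 0.25, limma adjusted p = 0.011) and TBI+E33 (0.92, SE 0.28, adjusted p = 0.014) but not in TBI+PMI vs. TBI (0.63, SE 0.28, adjusted p = 0.084). The shift of all probes was larger than the Igf2 difference in TBI+JM6 and in TBI+E33 vs. TBI (0.99 and 1.08). With quantile normalization Igf2 differed by 0.095 and 0.12 in these comparisons, and neither passed.

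The genes whose pattern was most like that of Igf2, by the lower of the Pearson correlations within the 8 arrays of each session and among 9316 genes, were Enpp2, Slc19a1 and Scgb1c1. Enpp2, which encodes the secreted enzyme autotaxin and is on the choroid plexus list, had r = 0.964 in the first session and 0.928 in the second. Slc19a1, a folate carrier, had 0.922 and 0.951. These values rest in part on the 3 high arrays: without them r was 0.926 over 6 arrays and -0.03 over 7 arrays for Enpp2, and 0.373 and 0.636 for Slc19a1.

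Igf1 showed small differences next to its spread. The log2 signal of its first probe was -1.59, -0.57 and -1.44 in Naïve, -1.83 and -1.70 in Sham, and -2.09, -1.46 and -1.59 in TBI rats. It was -1.08, -1.26 and -1.75 in TBI+PMI, -1.47, -1.36 and -1.06 in TBI+JM6, and -1.47 and -0.88 in TBI+E33 rats. The highest value was on Naïve 2, and TBI rats overlapped every other group. The difference was 0.05 (SE 0.32) between TBI and Sham and -0.52 (SE 0.29) between TBI and Naïve rats, and neither passed (adjusted p = 0.942 and 0.340). The second probe gave -0.24 (SE 0.36) and -0.64 (SE 0.32), which did not pass either. For this probe the TBI rats (highest -1.9252) were barely below all Naïve rats (lowest -1.9247). These groups did not overlap for 22.9% of all probes.

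**Figure D2:**
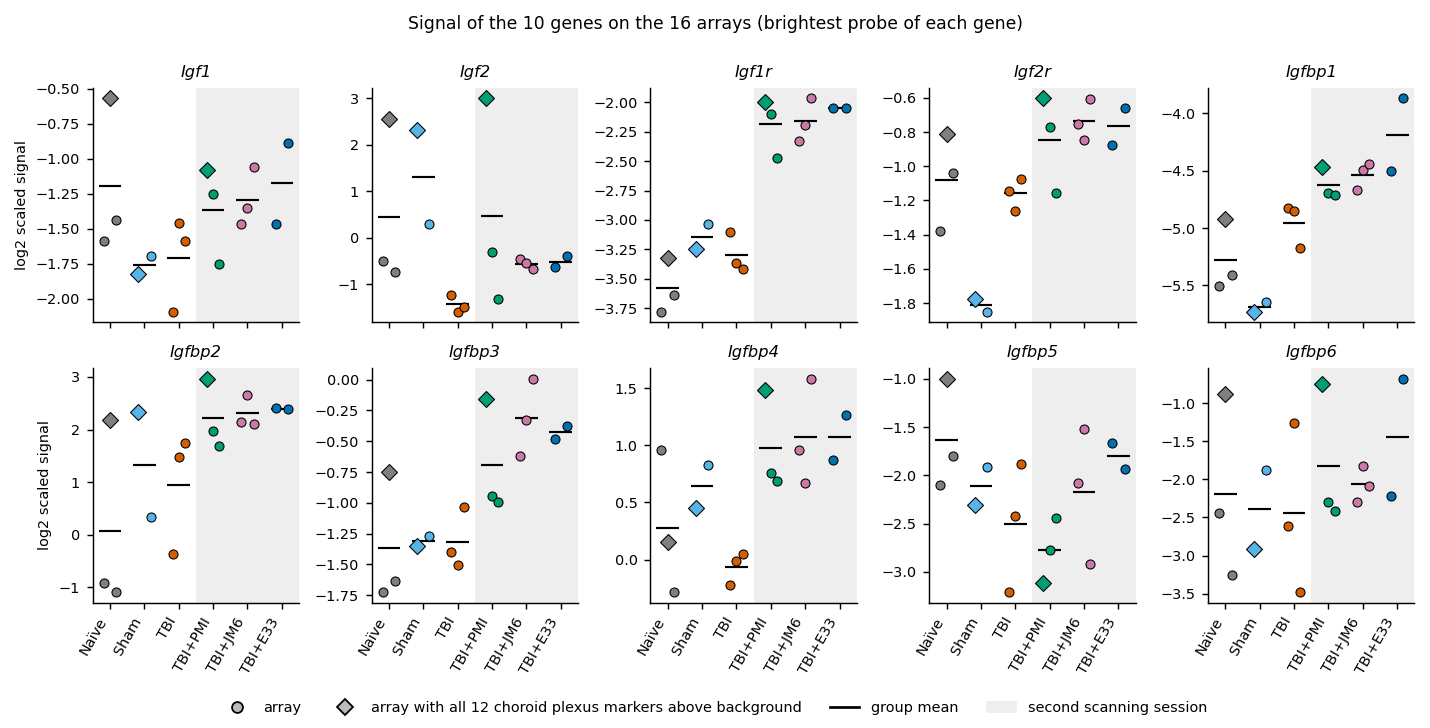
Log2 scaled signal (y axes, a separate range for each gene) of the brightest probe of the 10 genes in the 6 groups; each point is 1 array, the line is the group mean, diamonds are the 3 arrays with all 12 choroid plexus markers above background and the shaded area holds the arrays of the second scanning session. Igf2 was highest on the 3 diamonds, and Igf1r was higher on all 8 shaded arrays than on the other 8.

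Of the receptors, Igf2r was the only one of the 10 genes called among the untreated groups. Its log2 signal was -1.38, -0.81 and -1.04 in Naïve, -1.78 and -1.85 in Sham, and -1.14, -1.26 and -1.07 in TBI rats. Sham rats lay below all Naïve and TBI rats, where 39% and 41.5% of all probes did not overlap. Treated rats read -0.60, -0.77 and -1.16 (TBI+PMI), -0.75, -0.85 and -0.60 (TBI+JM6) and -0.88 and -0.66 (TBI+E33), and TBI+PMI rats overlapped TBI rats. Igf2r was lower in Sham than in Naïve rats by -0.73 (SE 0.20, limma adjusted p = 0.045), and 1 of 10 genes was called where 8.07% of all probes were. This call was lost under 8 of 13 other settings, with adjusted p from 0.0505 to 0.390, and when Naïve 2, Naïve 3, Sham 1 or Sham 2 was left out (adjusted p 0.112 to 0.205). Igf2r was higher in TBI than in Sham rats by 0.65 (SE 0.20) without passing the test (adjusted p = 0.063), and differed by -0.08 (SE 0.18) between TBI and Naïve rats.

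Igf1r, the receptor through which both ligands signal, did not pass among Naïve, Sham and TBI rats. Its log2 signal was -3.78, -3.32 and -3.64 in Naïve, -3.25 and -3.03 in Sham, and -3.11, -3.37 and -3.41 in TBI rats. On the arrays of treated rats it was -2.0, -2.10 and -2.47 in TBI+PMI, -2.33, -2.19 and -1.97 in TBI+JM6, and -2.05 on both TBI+E33 arrays. Every treated array was above every array of the first session, while the 3 treated groups overlapped each other. Treated and TBI rats did not overlap for 73.2% (TBI+JM6), 62.5% (TBI+PMI) and 85% (TBI+E33) of all probes. Igf1r rose by 1.13 (SE 0.18, limma adjusted p = 0.000168) in TBI+JM6, 1.11 (SE 0.18, adjusted p = 0.000316) in TBI+PMI and 1.24 (SE 0.20, adjusted p = 0.000215) in TBI+E33 vs. TBI rats. Set against the shift of all probes, the differences were 0.14, 0.32 and 0.17. With quantile normalization, which gives all arrays 1 distribution, Igf1r differed by 0.10 (SE 0.12), 0.26 (SE 0.12) and 0.14 (SE 0.13), and none passed. None passed with normexp background correction either (0.92, 0.52 and 0.65, adjusted p = 0.094, 0.574 and 0.376), while scaling to the 75th percentile over all probes gave 0.34, 0.46 and 0.41, which passed.

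Igfbp2 had the widest range over the 16 arrays of the 6 binding proteins. Its first probe read -0.92, 2.19 and -1.09 in Naïve, 2.33 and 0.33 in Sham, and -0.37, 1.48 and 1.74 in TBI rats. It read 2.97, 1.97 and 1.69 in TBI+PMI, 2.15, 2.66 and 2.11 in TBI+JM6, and 2.41 and 2.38 in TBI+E33 rats. The 3 arrays with all choroid plexus markers were high, but so were TBI 2, TBI 3 and all other arrays of treated rats, on which 3 to 8 of 12 of those markers were above background. On TBI 2 and TBI 3 the choroid plexus sum was 1.63 and 1.05, below both low Naïve arrays. The second Igfbp2 probe read -0.43, 1.48 and 1.99 in the TBI rats and ordered Naïve, Sham and TBI means as the first did.

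Igfbp2 did not pass in any comparison on all arrays. TBI minus Naïve was 0.89 (SE 0.82, adjusted p = 0.592) and TBI minus Sham was -0.38 (SE 0.91, adjusted p = 0.826). With the slide as a block they were 2.04 (SE 1.41) and 1.34 (SE 1.86), where the slide term again rested on the Naïve arrays alone, with the high Naïve 2 among them. Without the 3 arrays with all choroid plexus markers, TBI minus Naïve was 1.96 (SE 0.51, limma adjusted p = 0.078) and TBI minus Sham was 0.62. The direction against Sham turned, but Sham 2 was then the only Sham array. Without the 3 arrays Igfbp2 passed in TBI+JM6 (1.36, SE 0.46, limma adjusted p = 0.024) and TBI+E33 vs. TBI (1.44, SE 0.51, adjusted p = 0.030). On all arrays the shift of all probes in these comparisons was 0.99 and 1.08. With quantile normalization on all arrays Igfbp2 differed by 0.79 (SE 0.81) and 0.86 (SE 0.91), and neither passed. The genes most like Igfbp2 were Spata6 (r = 0.837 and 0.877), Efcab7 and Nudt7, and none of these is on the choroid plexus list. Without the 3 arrays r was 0.668 and 0.758 for Spata6, 0.664 and 0.719 for Efcab7, and 0.741 and 0.628 for Nudt7.

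Igfbp1 was above background on all arrays, at low intensities of 28.8 to 85.2. The log2 signal of this binding protein, in liver a target of insulin, was -5.51, -4.92 and -5.41 in Naïve, -5.73 and -5.64 in Sham, and -4.83, -4.85 and -5.18 in TBI rats. TBI rats lay above both Sham rats, where 41.5% of all probes did not overlap, and overlapped Naïve rats. The difference of 0.73 (SE 0.23) between TBI and Sham rats did not pass (adjusted p = 0.060). It passed when each array was scaled over all probes (0.80, adjusted p = 0.015) and when only probes above background on all arrays were tested (0.73, adjusted p = 0.034), and it did not with quantile normalization (0.65, adjusted p = 0.071).

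Igfbp3 and Igfbp4 did not pass among the untreated groups. Igfbp3, the main carrier of both ligands in blood, read -1.72, -0.75 and -1.63 in Naïve, -1.35 and -1.27 in Sham and -1.40, -1.51 and -1.04 in TBI rats, so that these groups overlapped. Igfbp4, which is cleaved by the protease Pappa to release its ligand, read 0.96, 0.16 and -0.28 in Naïve, 0.45 and 0.83 in Sham, and -0.22, -0.01 and 0.05 in TBI rats. Here TBI rats were below both Sham rats, by -0.70 (SE 0.37, limma adjusted p = 0.247), and overlapped Naïve rats. TBI and Sham rats did not overlap for 41.5% of all probes. With the slide as a block the Igfbp4 difference between TBI and Sham rats was 0.14 (SE 0.49), and all 3 TBI rats but no Sham rat were on the second slide. The slide term rested on the Naïve arrays alone.

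Igfbp5 and Igfbp6 had wide spread within groups. Igfbp5, a binding protein that attaches to extracellular matrix, lay between -2.10 and -1.0 in Naïve, between -2.31 and -1.91 in Sham and between -3.21 and -1.88 in TBI rats. In treated rats it lay between -3.11 and -2.44 (TBI+PMI), -2.91 and -1.52 (TBI+JM6) and -1.93 and -1.67 (TBI+E33). TBI minus Naïve was -0.87 (SE 0.40, adjusted p = 0.239), and the groups overlapped. Its second probe was well above background on 1 of 16 arrays and was not tested. Igfbp6, which prefers Igf2 as its ligand, lay between -3.26 and -0.88 in Naïve, -2.91 and -1.88 in Sham, -3.48 and -1.26 in TBI and -2.42 and -0.68 in treated rats, and passed nowhere.

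**Figure D3:**
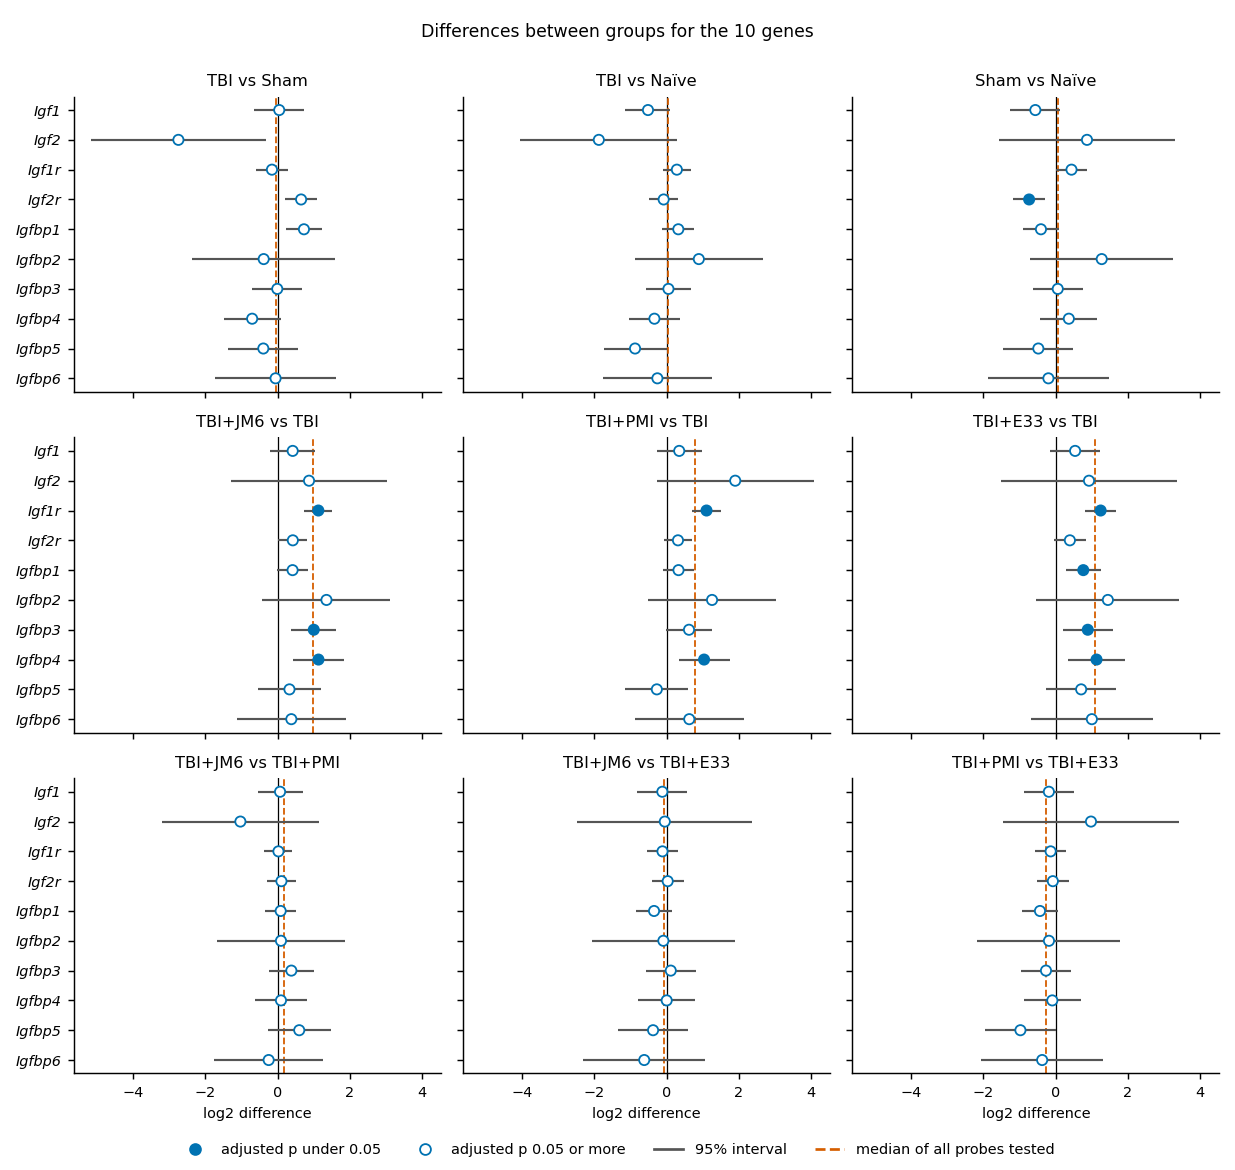
Log2 difference (x axes) of the 10 genes in the 9 comparisons; points are limma estimates, filled where the adjusted p was under 0.05, bars are 95% intervals and the dashed line is the median of all probes tested. Of 10 genes, 0 were called when TBI was compared with Sham or Naïve, 1 in Sham vs. Naïve, 3, 2 and 4 in the comparisons of treated with TBI rats, and 0 in the 3 comparisons between treatments.

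Taking the 10 genes as a list, injury was followed by no called change. In TBI vs. Sham 0 of 10 were called by limma, beside 9.38% of all probes, 3 had an unadjusted p under 0.05 and 4 passed the methods' t-test (Igf2 and Igfbp4 lower, Igf2r and Igfbp1 higher). The median difference was -0.10, against -0.03 over all probes, and the groups did not overlap for 4 of 10 genes, beside 41.5% of all probes. In TBI vs. Naïve 0 of 10 were called beside 4.71% of all probes, 1 had an unadjusted p under 0.05, none passed the methods' t-test, and the median was -0.17 against 0.04. The shares of all probes called are those by limma. No share of all probes was taken at the unadjusted p or by the methods' t-test, so those counts have no background beside them. TBI vs. Sham and TBI vs. Naïve share the TBI arrays, and no TBI rat was on a slide with a Sham rat.

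TBI+JM6, TBI+PMI and TBI+E33 rats had higher values than TBI rats for nearly all 10 genes, as did most probes on the array. In TBI+JM6 vs. TBI 3 of 10 genes rose, Igf1r, Igfbp3 and Igfbp4, where 70.1% of all probes were called. In TBI+PMI vs. TBI 2 of 10 rose, Igf1r and Igfbp4, where 56.7% were called. In TBI+E33 vs. TBI 4 of 10 rose, Igf1r, Igfbp1, Igfbp3 and Igfbp4, where 70.3% were called. The median difference of the 10 genes was 0.65, 0.62 and 0.91, which is -0.35, -0.17 and -0.17 once the shift of all probes is taken off. Treated and TBI rats did not overlap for 7, 4 and 7 of 10 genes, beside 73.2%, 62.5% and 85% of all probes. The 3 comparisons share the TBI arrays.

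Igfbp4 read 0.96, 0.67 and 1.58 in TBI+JM6, 1.49, 0.76 and 0.68 in TBI+PMI and 0.88 and 1.26 in TBI+E33 rats, all above the 3 TBI rats. It rose by 1.13 (SE 0.33, limma adjusted p = 0.008), 1.04 (SE 0.33, adjusted p = 0.017) and 1.13 (SE 0.37, adjusted p = 0.015). With quantile normalization the Igfbp4 differences were 0.49, 0.55 and 0.49 (adjusted p = 0.245, 0.212 and 0.317) and with the 75th percentile over all probes 0.35, 0.39 and 0.30, and none passed. The TBI+PMI call was also lost with normexp (adjusted p = 0.083) and without TBI 1 (0.96, adjusted p = 0.0505) or TBI+PMI 1 (0.78, adjusted p = 0.079), and the TBI+E33 call without TBI+E33 2 (0.94, adjusted p = 0.115). Igfbp3 read -0.62, -0.32 and 0.01 in TBI+JM6, -0.16, -0.94 and -0.99 in TBI+PMI and -0.48 and -0.38 in TBI+E33 rats, again above the 3 TBI rats. It rose by 1.0 (SE 0.29) in TBI+JM6 and 0.89 (SE 0.32) in TBI+E33, and the 0.62 (SE 0.29) of TBI+PMI did not pass. With quantile normalization the Igfbp3 differences in TBI+JM6 and TBI+E33 were 0.24 and 0.089 (adjusted p = 0.492 and 0.848), and with the 75th percentile over all probes 0.22 and 0.058. The TBI+E33 call was also lost with normexp (adjusted p = 0.086) and when TBI 1, TBI 2, TBI+E33 1 or TBI+E33 2 was left out (adjusted p 0.0591 to 0.117). With 75th percentile scaling on all arrays, the Igfbp4 and Igfbp3 differences were within 0.25 log2 units of the shift of all probes. Lying apart from the TBI rats was also seen for 73.2% (TBI+JM6), 62.5% (TBI+PMI) and 85% (TBI+E33) of all probes.

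The direction in which Igfbp1 passed depended on how the arrays were set to a common scale. It read -4.67, -4.50 and -4.44 in TBI+JM6, -4.47, -4.69 and -4.71 in TBI+PMI, and -4.51 and -3.87 in TBI+E33 rats, above all TBI rats, and differed from TBI by 0.42 (SE 0.20), 0.33 (SE 0.20) and 0.76 (SE 0.23, limma adjusted p = 0.010). With quantile normalization it was instead lower, by -1.32 (SE 0.18), -1.14 (SE 0.18) and -1.17 (SE 0.21), and passed in all 3 comparisons (adjusted p = 0.000846, 0.00274 and 0.0037). That setting called 1 of 10 genes in each comparison, beside 27.2% of all probes in TBI+JM6, 19.2% in TBI+PMI and 20.4% in TBI+E33 vs. TBI. Without TBI+E33 2 the TBI+E33 difference was 0.45 (adjusted p = 0.165) with 75th percentile scaling, and with normexp background correction it was 0.094, so that neither passed. Igf2r also passed in both directions in TBI+E33 vs. TBI, lower with the 75th percentile over all probes and higher by the methods' t-test. With quantile normalization Igf1 and Igf2r turned from higher to lower in all 3 comparisons, Igfbp5 and Igfbp6 in 2 and Igfbp3 in 1, without passing.

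**Figure D4:**
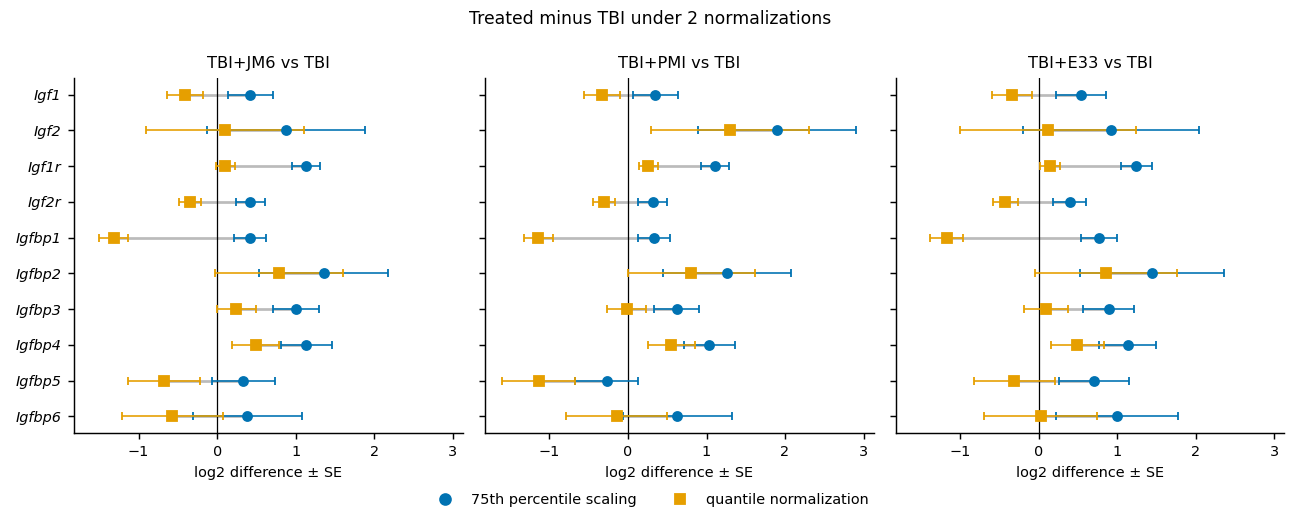
Log2 difference between treated and TBI rats (x axes, bars are SE) for the 10 genes, with each array scaled to its 75th percentile (circles) and with quantile normalization (squares). Igfbp1 lay between 0.33 and 0.76 in the first and between -1.32 and -1.14 in the second.

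None of the 10 genes was called between treatments. Between TBI+JM6 and TBI+PMI 0 of 10 genes were called by limma, where 0.0131% of all probes were. Between TBI+JM6 and TBI+E33 0 of 10 were called, where 0.0175% were, and between TBI+PMI and TBI+E33 0 of 10, where 0.110% were. An unadjusted p under 0.05 was found for Igfbp5 in the last of these, -0.98 (95% interval -1.95 to -0.002), which also passed the methods' t-test, and for no other gene. Igf1r had the narrowest intervals, -0.36 to 0.41, -0.55 to 0.32 and -0.57 to 0.30 log2 units, whereas those of Igf2 ran from -3.20 to 1.14, -2.48 to 2.38 and -1.45 to 3.40, so that large differences in Igf2 would not have been detectable. The 3 agents were given at different doses.

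Around the 10 genes, a list of 20 other genes of the IGF system was read, of which 18 were on the array by name and 15 were tested. It holds receptor substrates and adaptors (Irs1, Irs2, Irs4, Grb10, Grb14, Shc1), the growth hormone receptor Ghr, the proteases Pappa and Htra1, the stanniocalcins Stc1 and Stc2 that inhibit Pappa, the binding protein relative Igfbpl1 and the mRNA-binding proteins Igf2bp1 to Igf2bp3. In the 3 comparisons among untreated groups 0 of 15 were called by limma, beside 9.38% (TBI and Sham), 4.71% (TBI and Naïve) and 8.07% (Sham and Naïve) of all probes. At an unadjusted p under 0.05 there were 2 (TBI and Sham), 1 (TBI and Naïve) and 2 (Sham and Naïve), and the methods' t-test passed 1, 2 and 1. No share of all probes was taken by either of these rules. The TBI minus Sham difference was 0.69 (SE 0.24, adjusted p = 0.089) for Htra1 and -1.33 (SE 0.50, adjusted p = 0.110) for Igfbpl1.

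Of those 15 genes, 7 were above background on 16 arrays, and 6 of these 7 rose in TBI+JM6, 3 in TBI+PMI and 5 in TBI+E33 vs. TBI rats, beside 69.9%, 56.7% and 70.2% of all probes. Over all 15 the counts were 14, 11 and 13, but 7 of the 15 passed the filter on dim probes only through groups of treated rats. Of these, 5 (Irs4, Pappa, Stc2, Igf2bp1 and Igf2bp3) were not well above background on any array of the first session and were on 6 to 8 of 8 arrays of the second, so no fold change is given for them. With quantile normalization 4 rose and 1 fell in TBI+JM6, 4 rose in TBI+PMI, and 2 rose and 1 fell in TBI+E33 vs. TBI, where 27.2%, 19.2% and 20.4% of all probes were called. The gene that fell in both was Ghr, by -0.90 (SE 0.20) and -0.92 (SE 0.22), where 75th percentile scaling gave 0.75 (SE 0.22) and 0.96 (SE 0.25). Every gene that rose with quantile normalization was among the 7 that passed the filter only through groups of treated rats. None of the 7 genes above background on 16 arrays rose with it, so these counts do not show a rise of the list. No gene of the list was called between treatments.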

How the data were processed

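Hippocampal RNA of 16 rats was hybridised to single-colour Agilent rat 4x44K arrays, 1 rat per array, with amplification before labelling not stated per rat. Per the file headers, Agilent Feature Extraction 9.5.3.1 made the deposited spot intensity by background subtraction and spatial detrending, with no normalization between arrays. The authors' matrix, deposited as a ratio on a linear scale, had a median of 0.14 on 16 of 16 arrays, follows the scanner values (r of log2 values 0.998 or more) and was used as an alternative on the log2 scale.

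Spots of a probe (42877 non-control spots, outlier flags left out) were averaged, values were scaled to the 75th percentile of the array's probes flagged well above background, and converted to log2. Probes with that flag in all replicates of 1 or more groups were tested (22821 of 30367). A single limma model (limma 3.58.1 in R 4.3.3; 10 residual degrees of freedom) without covariates was fitted to all arrays, with calls at an adjusted p below 0.05 (Benjamini-Hochberg, over all probes tested). The model was tested on simulated data with independent noise and no session, slide or tissue differences, so that test does not bear on these. The brightest probe stands for a gene. All 10 genes are named, and other genes of the IGF system where called or counted. Groups come from the sample labels. The methods' t-test used an unadjusted p under 0.05 and a fold change over 1.2. The genes, lists, tests and alternatives were chosen with earlier results of these data known. The slides held Naïve 1 and 2 with both Sham arrays, Naïve 3 with the TBI arrays, the TBI+PMI arrays with TBI+JM6 1, and TBI+JM6 2 and 3 with the TBI+E33 arrays. Alternatives were other background corrections, scalings, filters, tests, blocks and left-out arrays. Precision is limited by the number of arrays. Figures were drawn with matplotlib.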

Additional observations from a re-analysis of the deposited data

How the results depend on the processing

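The number of the 10 genes called was 0 under every setting in TBI vs. Naïve, TBI+JM6 vs. TBI+PMI and TBI+JM6 vs. TBI+E33, and in TBI+PMI vs. TBI+E33 except for 1 with the methods' t-test. In TBI vs. Sham it was 1 with quantile normalization and with the authors' matrix (Igf2r), 2 with the 75th percentile over all probes and with only probes above background on all arrays (Igf2r and Igfbp1), and 4 with the methods' t-test. In Sham vs. Naïve it was 0 with normexp (offset 50), with a GC trend removed, with no filter on dim probes, with limma on both groups alone, with the slide as a fixed block, with probes of a gene averaged and without the 3 arrays with all choroid plexus markers. In TBI+JM6 vs. TBI it was 1 with quantile normalization, the authors' matrix and the 75th percentile over all probes, 6 with the methods' t-test, 5 with the slide as a random block and without the 3 arrays, and 2 to 4 under the others. In TBI+PMI vs. TBI it was 0 with normexp and 1 with quantile normalization, the authors' matrix, the 75th percentile over all probes and without the 3 arrays, and 3 with the slide as a random block. In TBI+E33 vs. TBI it was 1 with normexp, quantile normalization and the authors' matrix, 2 with the 75th percentile over all probes, 5 with the methods' t-test and with limma on both groups alone, and 6 without the 3 arrays. Igfbp1 in TBI+E33 vs. TBI turned to -1.17 with quantile normalization, -1.06 with the authors' matrix and -0.066 with the 75th percentile over all probes. The cause of these changes was not tested. Shares of all probes called were taken only for the main setting and quantile normalization, so the other counts have no background beside them. In the main setting 70.1%, 56.7% and 70.3% of all probes were called in TBI+JM6, TBI+PMI and TBI+E33 vs. TBI. Without the 3 arrays, Sham 2 was the only Sham array. Leaving out 1 array at a time gave 0 to 1 genes called in Sham vs. Naïve, 1 to 4 in TBI+PMI vs. TBI (1 without TBI 1 or TBI+PMI 1, 4 without TBI+PMI 3), 3 to 3 in TBI+JM6 vs. TBI, 1 to 4 in TBI+E33 vs. TBI (1 without TBI+E33 2), and 0 elsewhere; a lone array was assumed to vary like the other groups.

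Rats with the same replicate number in different groups were not shown to be pairs: their deviations from the group means correlated at -0.19 to 0.18, over 0.1 in 3 of 36 pairs. With the replicate number as a block, 0 genes were called in Sham vs. Naïve, where Igf2r had -0.74 (adjusted p = 0.077), and the counts of the other comparisons did not change.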
